A study of Mus musculus with 6 samples.

Results

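A set of 37 macrophage genes, of the 24421 gene symbols counted, was examined in blood endothelial cells (BECs) sorted from E15.5 mouse embryo skin. The genes were chosen by name, all 37 were counted, and all 37 passed the minimum of 5 normalized counts in the skin libraries. They were divided into 18 core genes of the macrophage lineage, 11 genes of tissue-resident macrophages and 8 genes of lipid-handling or activated macrophages. Cont BECs were Tie2-Cre(-); Dot1l 2f/2f and cKO BECs were Tie2-Cre(+); Dot1l 2f/2f, so both genotypes carried the floxed allele of Dot1l, the H3K79 methyltransferase. Tie2-Cre is known to act in endothelium and also in blood-forming cells and their progeny. The RNA of 2 to 3 embryos was pooled into 1 library for each genotype. The cells were depleted with antibodies to CD45 (encoded by Ptprc), F4/80 (encoded by Adgre1) and Lyve1 before sequencing, and the study also lists CD31 (encoded by Pecam1) as a marker for which the BECs were positive. Cultured cells gave the other 4 libraries: the yolk sac BEC line CRL-2581 and dermal LECs (lymphatic endothelial cells, C57-6064L), each with empty lentivirus (Cont) or with lentivirus for dCas9-VP64 and guides to the Dot1l promoter (OE), sorted for EGFP and pooled from 2 to 3 flasks. Each group had 1 library, so no difference could be set against the spread between replicates, and every comparison below describes 2 libraries.

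Macrophages of embryonic skin descend from yolk sac and fetal liver progenitors, and live on signals through the Csf1 receptor. They clear dead cells and debris through scavenger receptors, complement C1q and Fc receptors, and many sit along blood vessels. Resident macrophages are known by Mrc1, Cd163, Folr2 and Timd4, whereas Trem2, Gpnmb and Marco mark cells that take up lipid or particles or have been activated.

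Totals were 8863349 reads in Cont BECs and 11084686 reads in cKO BECs of skin, and 13933651 to 31032461 reads in the cultured libraries. CPM is the number of reads of a gene per 1000000 reads of its library. Ratios between the skin libraries were taken from counts normalized by the median of ratios, and each log2 ratio has an exact (Clopper-Pearson) 95% interval from the reads of both libraries. These intervals cover counting error only, since reads that PCR copied from one molecule cannot be recognised here. The study's rule called a gene where the larger of its 2 normalized counts reached 5 and exceeded 3 times the smaller. Dot1l had 762 reads in Cont BECs against 944 under the cKO label, a log2 ratio of -0.07 (interval -0.21 to 0.07). Counts over the whole gene do not test the deletion of its floxed part, which the study examined by RT-qPCR (not analysed here). As this count did not separate the genotypes, the second library is named here by its label.

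Macrophage transcripts were abundant in both skin libraries although the cells had been depleted for CD45 and F4/80. Together the 37 genes took 0.595% of all reads in Cont BECs against 0.985% under the cKO label, against 0.0253% to 0.0553% in the cultured libraries. Mrc1, the mannose receptor, alone took 0.254% and 0.391%, and ranked 12 and 7 among all genes by reads. The depletion targets themselves were read. Ptprc had 1206 reads in Cont BECs against 2340 under the cKO label, a log2 ratio of 0.58 (interval 0.48 to 0.68). Adgre1 had 1719 and 3411 reads, a log2 ratio of 0.61 (interval 0.53 to 0.70). Lyve1, which marks lymphatic endothelium and also many resident macrophages, had 9105 and 19959 reads, a log2 ratio of 0.75 (interval 0.72 to 0.79). In contrast, Pecam1, which encodes the endothelial surface protein CD31, had 10441 and 8317 reads, a log2 ratio of -0.71 (interval -0.75 to -0.66). In bulk RNA, more cells of a type and more RNA per cell cannot be told apart, so these shares are shares of reads.

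**Figure D1:**
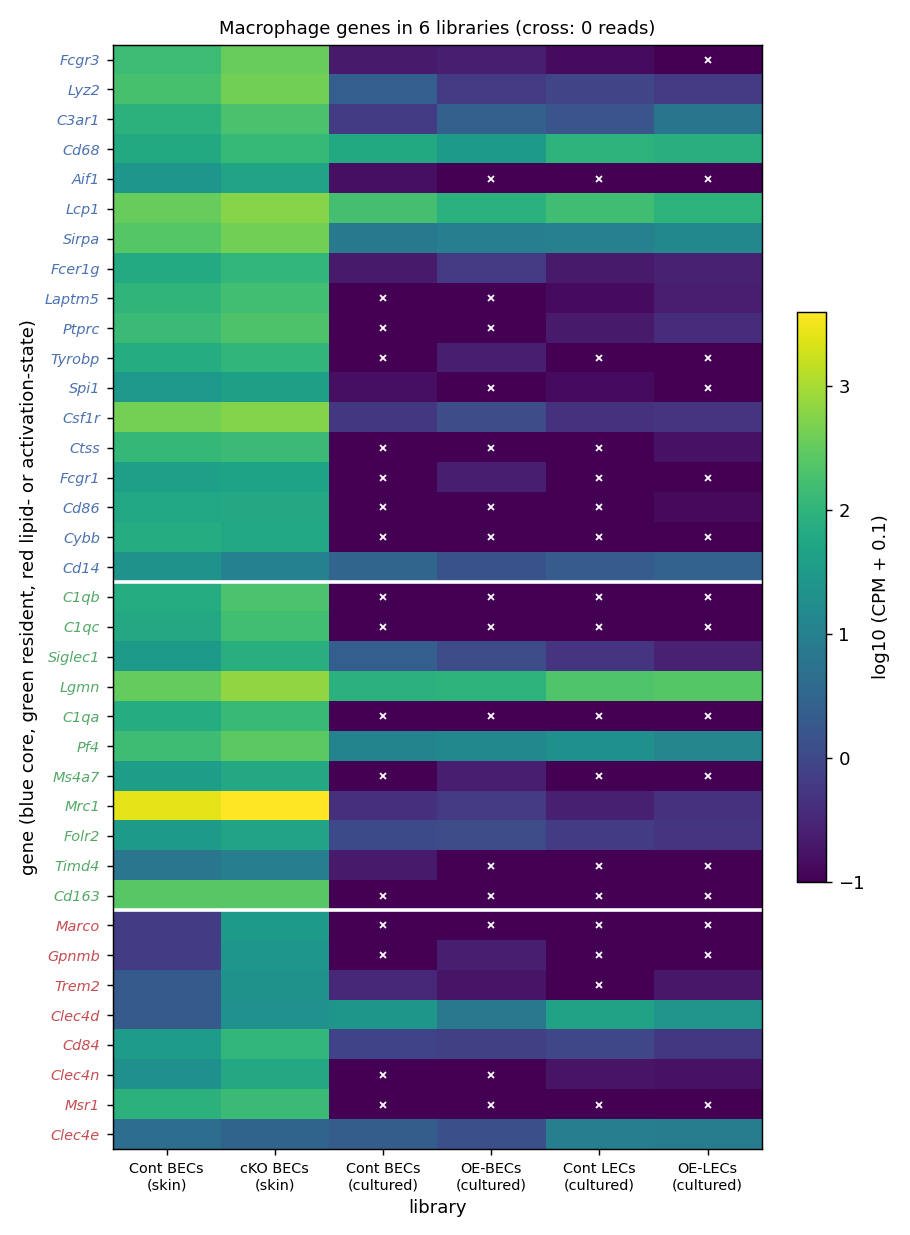
Level of each macrophage gene (rows, grouped by role) in each of the 6 libraries (columns), as log10 of CPM + 0.1; a cross marks 0 reads. The skin columns hold reads for all 37 genes, while 18 of the 37 rows have at most 3 reads in each cultured column, and Lcp1, Cd68 and Lgmn are among the rows that stay bright.

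In the library labelled cKO, 31 of the 37 genes were higher than in Cont BECs by an interval that lay above 0, 2 were lower by an interval that lay below 0, and 4 had intervals that spanned 0. Over the 15993 genes that reached the minimum, 22.8% lay above 0 in this way and 25.0% below. By the 3-fold rule 5 of the 37 were called higher and 0 were called lower, while 5.17% of all genes at the minimum were called higher and 2.41% lower. All 5 called genes, Marco, Gpnmb, Trem2, Clec4d and Cd84, were in the group of lipid-handling or activated macrophages. Adding 1 to the normalized counts gave a median log2 ratio of 0.59 over the core genes, 0.85 over the resident genes and 2.50 over the lipid- or activation-state genes, against 0.00 over all genes at the minimum. Since the genes were listed with results of these libraries known, these counts describe the list and are not a test of it.

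**Figure D2:**
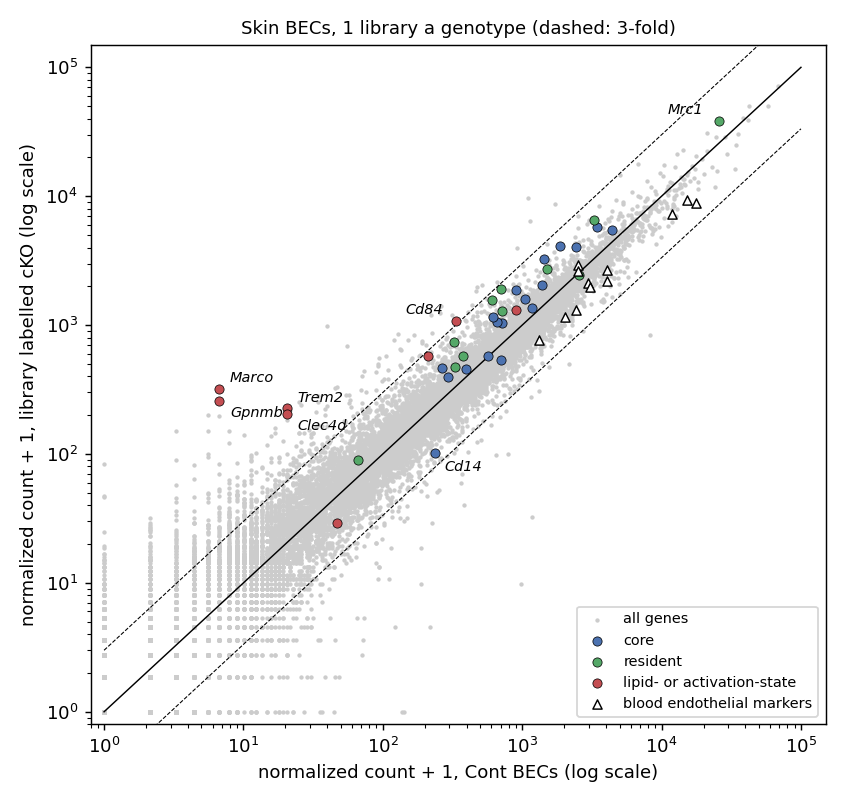
Normalized count + 1 of every gene in Cont BECs (x axis) and in the library labelled cKO (y axis), both on log scales, with the macrophage genes coloured by role and the blood endothelial markers as triangles. Marco, Gpnmb, Trem2 and Clec4d stand far above the dashed 3-fold line, Cd84 lies just over it, and most other macrophage genes lie between it and the line of equality.

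Among the lipid- or activation-state genes, the scavenger receptor gene Marco differed most. Cont BECs held 5 reads of it (0.564 CPM), against 360 reads (32.5 CPM) under the cKO label. By normalized counts it was 55.4-fold higher, with a log2 ratio of 5.79 (interval 4.56 to 7.42), and the second largest ratio among 10212 genes that reached 100 normalized counts in either skin library. Gpnmb, a transmembrane glycoprotein of phagolysosomes, had 5 and 295 reads and was 45.4-fold higher (log2 ratio 5.50, interval 4.27 to 7.14). Trem2, a lipid-sensing receptor that signals through the adaptor Tyrobp, had 17 and 260 reads. It was 11.8-fold higher (log2 ratio 3.56, interval 2.85 to 4.36), whereas Tyrobp itself was 1.46-fold higher with 627 and 1190 reads. For every 1000 reads of the lineage receptor gene Csf1r, Cont BECs held 1.29 reads of Marco, 1.29 of Gpnmb and 4.40 of Trem2. The library labelled cKO held 57.9, 47.4 and 41.8 reads, respectively. All 3 were thus also higher relative to Csf1r.

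The C-type lectin receptors of one cluster on chromosome 6 had unlike ratios. Clec4d (mm10, chr6:123262111-123275265), which encodes a receptor for microbial glycolipids, had 17 and 231 reads, a log2 ratio of 3.39 (interval 2.68 to 4.19). Clec4n (chr6:123229843-123247021), which encodes the fungal sensor Dectin-2, had 183 and 660 reads and was 2.78-fold higher, just under the rule (log2 ratio 1.47, interval 1.23 to 1.72). Clec4e (chr6:123281789-123289870), which encodes Mincle, had 40 and 32 reads, a log2 ratio of -0.70 whose interval spanned 0 (-1.42 to 0.01). Of the neighbouring Clec4a genes, Clec4a1 had 373 and 461 reads, Clec4a2 had 296 and 341, and Clec4a3 had 194 and 217. Their log2 ratios of -0.07, -0.17 and -0.22, with 1 added to each normalized count, were close to 0. Cd84, a self-binding receptor of the SLAM family, had 292 and 1225 reads (log2 ratio 1.69, interval 1.51 to 1.88). Msr1, the other scavenger receptor of the group, had 792 and 1492 reads and was only 1.45-fold higher.

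RefSeq promoter windows (GRCm38.p6, the mm10 assembly) were matched for 27 of the 37 genes, and no window was read for Tyrobp, C1qa, Csf1r, Siglec1, Msr1, Clec4n, Spi1, Sirpa, Cd86 and Cd14. The 250 bases before the start are shown for the 5 called genes, and for C1qb as the resident gene with the highest ratio, so that the letters of genes with unlike ratios can be compared. They read 5′ to 3′ on the strand of the gene. Capitals mark GAGGAA (the core of sites of PU.1, the factor encoded by Spi1), TGANTCA (AP-1), CACGTG or CATGTG (E boxes that MiT/TFE factors can bind) on either strand. None of the marked matches overlapped another.
Marco, chr1:120505025-120505274, minus strand: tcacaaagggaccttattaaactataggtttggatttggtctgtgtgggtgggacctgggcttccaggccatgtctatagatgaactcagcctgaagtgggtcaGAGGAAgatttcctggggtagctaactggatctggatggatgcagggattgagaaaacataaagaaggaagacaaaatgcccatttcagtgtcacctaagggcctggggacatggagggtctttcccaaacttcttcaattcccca
Gpnmb, chr6:49036268-49036517, plus strand: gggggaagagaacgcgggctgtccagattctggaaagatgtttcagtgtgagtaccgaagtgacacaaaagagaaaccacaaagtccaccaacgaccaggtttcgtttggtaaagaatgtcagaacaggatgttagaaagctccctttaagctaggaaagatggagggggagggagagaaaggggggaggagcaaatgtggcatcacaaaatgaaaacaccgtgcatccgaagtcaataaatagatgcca
Trem2, chr17:48346151-48346400, plus strand: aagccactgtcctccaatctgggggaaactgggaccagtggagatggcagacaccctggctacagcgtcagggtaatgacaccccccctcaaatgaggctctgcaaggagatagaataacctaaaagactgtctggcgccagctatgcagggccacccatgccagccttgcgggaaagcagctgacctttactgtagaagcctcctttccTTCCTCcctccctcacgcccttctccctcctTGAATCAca
Clec4d, chr6:123261857-123262106, plus strand: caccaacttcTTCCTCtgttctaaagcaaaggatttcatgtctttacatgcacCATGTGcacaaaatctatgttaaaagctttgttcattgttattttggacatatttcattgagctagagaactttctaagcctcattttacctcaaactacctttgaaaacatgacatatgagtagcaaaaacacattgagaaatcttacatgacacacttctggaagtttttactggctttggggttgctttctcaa
Cd84, chr1:171839447-171839696, plus strand: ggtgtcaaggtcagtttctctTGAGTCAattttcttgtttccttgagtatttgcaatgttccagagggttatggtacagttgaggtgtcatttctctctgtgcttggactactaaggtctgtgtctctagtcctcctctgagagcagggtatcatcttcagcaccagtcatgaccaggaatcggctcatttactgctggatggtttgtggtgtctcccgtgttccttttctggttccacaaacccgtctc
C1qb, chr4:136886201-136886450, minus strand: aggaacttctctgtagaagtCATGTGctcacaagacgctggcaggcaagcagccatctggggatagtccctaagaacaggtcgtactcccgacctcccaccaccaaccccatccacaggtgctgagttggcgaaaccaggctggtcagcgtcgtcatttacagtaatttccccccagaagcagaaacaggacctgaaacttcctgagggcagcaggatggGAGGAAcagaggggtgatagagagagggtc

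GAGGAA was found in the windows of 15 of the 27 genes, Marco, Trem2, Clec4d and C1qb among them, and in 48.5% of their 33 windows against 23.3% of all 32851 promoter windows of this length. TGANTCA was found in 7 of the 27 genes, among them Trem2 and Cd84, and in 21.2% of the 33 windows against 6.75% of all windows. CATGTG was found in 8 genes, among them Clec4d and C1qb (24.2% of the 33 windows against 12.3% of all). CACGTG was found in 1 gene, Lgmn (3.03% of the 33 windows against 6.02% of all). The window of Gpnmb held none of the 4 motifs. None of the 4 motifs was found in the windows of all 5 called genes. A match is only a run of letters, and binding was not measured.

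Among the resident genes, the complement genes C1qa, C1qb and C1qc lie side by side on chromosome 4, and their products form the recognition molecule of the classical pathway. C1qb had 622 reads (70.2 CPM) in Cont BECs against 2181 (197 CPM) under the cKO label, which gave a log2 ratio of 1.43 (interval 1.30 to 1.56). C1qc had 529 and 1776 reads (log2 ratio 1.37, interval 1.23 to 1.51). C1qa, with 624 and 1473 reads, had a smaller log2 ratio of 0.86 (interval 0.73 to 0.999), which did not overlap those of C1qb and C1qc. Siglec1, a sialic acid receptor also called Cd169, had 284 and 848 reads and was 2.30-fold higher (log2 ratio 1.20). Lgmn, a lysosomal protease, and Pf4, a chemokine, were 1.99-fold and 1.80-fold higher, with 2892 and 7486 reads and with 1331 and 3118 reads.

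Mrc1, the most abundant of the 37 genes per length as well, was at 398 CPM per kilobase of exon in Cont BECs against 614 under the cKO label. It had 22493 and 43350 reads, a 1.48-fold difference with the narrowest interval of the set (log2 ratio 0.57, interval 0.55 to 0.59). The microRNA gene Mir511 lies within it on the same strand and had 24 and 32 reads. Cd163, the receptor for haemoglobin bound to haptoglobin, had 2235 and 2808 reads (252 and 253 CPM) and a log2 ratio of -0.05 (interval -0.13 to 0.03). Hence Cd163 and Mrc1, both markers of resident macrophages, had intervals that did not overlap. Timd4, a phosphatidylserine receptor of long-lived resident macrophages, had only 57 and 101 reads, and its interval spanned 0 (-0.04 to 0.94). Folr2, a folate receptor, had 286 and 536 reads, and Ms4a7 had 329 and 655, with log2 ratios of 0.53 and 0.62.

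**Figure D3:**
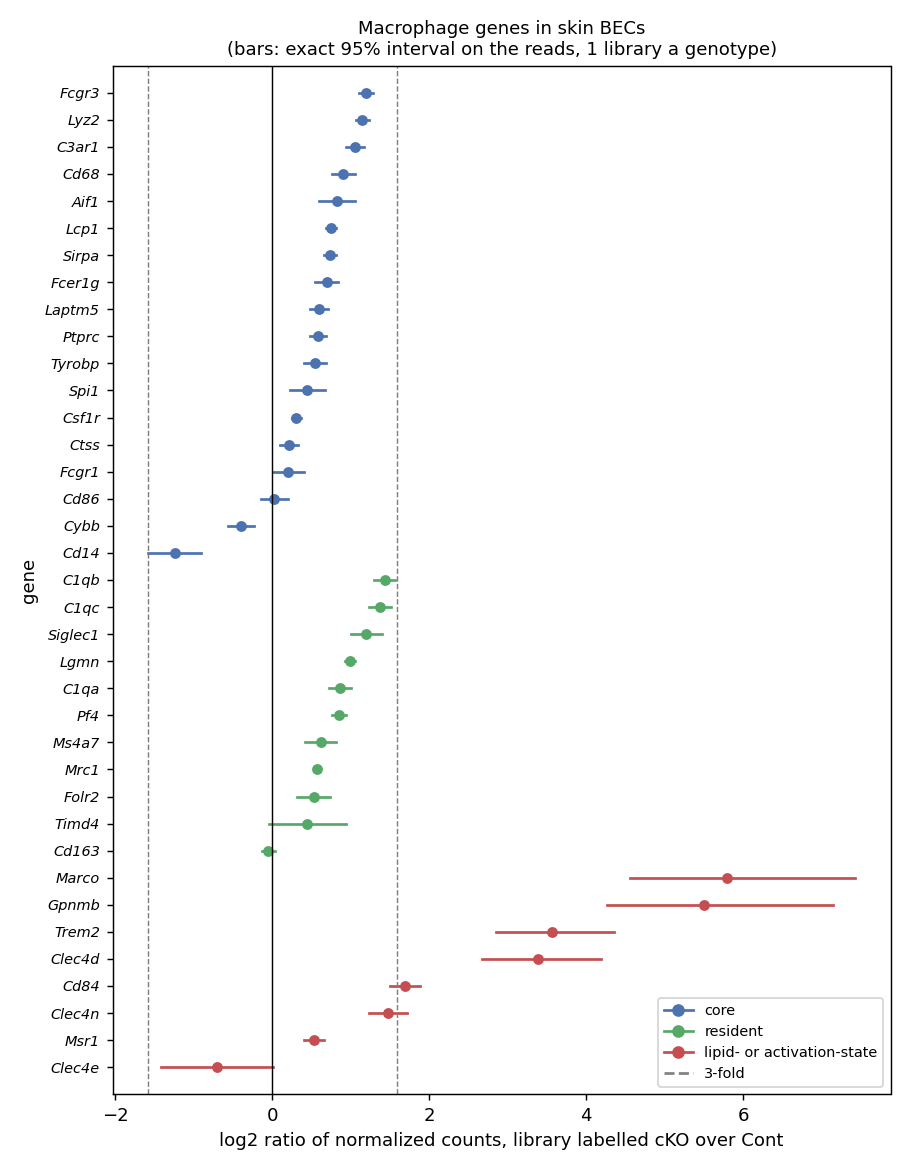
Log2 ratio of normalized counts (library labelled cKO over Cont BECs, x axis) for each macrophage gene, ordered within its role, with the exact 95% interval on the reads as a bar and 3-fold as dashed lines. Most core and resident genes sit between 0 and 1.43, and the lipid- or activation-state genes spread from -0.70 for Clec4e to 5.79 for Marco.

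Of the 18 core genes, 15 were higher and 2 lower by their intervals, and the interval of 1 spanned 0. The shares over all genes at the minimum were 22.8% higher and 25.0% lower. Csf1r, the receptor on which the lineage depends, had 3866 and 6218 reads, a log2 ratio of 0.31 (interval 0.25 to 0.37). Hmgxb3, which overlaps it on the opposite strand, had 422 and 671 reads. Spi1, the transcription factor PU.1 of myeloid cells, had 255 and 452 reads (log2 ratio 0.45, interval 0.22 to 0.68). The cytoskeletal and membrane genes Laptm5, Lcp1 and Aif1 had log2 ratios of 0.60, 0.74 and 0.82. At the upper end, the lysozyme gene Lyz2 had 1625 and 4681 reads and was 2.22-fold higher (log2 ratio 1.15, interval 1.07 to 1.23), while its near copy Lyz1 had 1 and 2 reads. C3ar1, the receptor for complement fragment C3a, had 789 and 2128 reads and was 2.08-fold higher. Cd68, a lysosomal membrane protein, had 543 and 1319 reads and was 1.87-fold higher. Sirpa, the receptor for the signal CD47 that restrains uptake, had 2147 and 4641 reads (log2 ratio 0.73, interval 0.66 to 0.81).

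The Fc receptor genes were unequal. Fcgr3, a low-affinity receptor for IgG, had 1256 and 3736 reads and was 2.29-fold higher (log2 ratio 1.19, interval 1.10 to 1.29). Its relatives Fcgr2b, the inhibitory receptor, and Fcgr4 were called higher, with 407 and 2089 reads and with 21 and 165 reads. Fcgr1, the high-affinity receptor, had 346 and 518 reads and a log2 ratio of only 0.20 (interval 0.01 to 0.40). Fcer1g, the signalling chain that Fcgr1 and Fcgr3 share, lay between them with 576 and 1209 reads (log2 ratio 0.69, interval 0.55 to 0.84). The Fcgr genes are alike in sequence, which makes the assignment of their reads less certain.

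A few core genes were lower or had ratios near 0. Cd14, the coreceptor for bacterial lipopolysaccharide, had 207 and 114 reads (23.4 and 10.3 CPM). It was 2.36-fold lower (log2 ratio -1.24, interval -1.58 to -0.90). Cybb, the catalytic subunit of the phagocyte oxidase, had 615 and 605 reads (log2 ratio -0.40, interval -0.57 to -0.24). Cd86, a costimulatory ligand, had 494 and 653 reads, and its interval spanned 0 (-0.15 to 0.20). Ctss, a protease of antigen processing, had 1031 and 1548 reads (log2 ratio 0.21, interval 0.09 to 0.32). The ratio of Cd14 therefore differed from that of Fcgr3 by more than the counting error of either.

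The pattern was then followed into macrophage genes outside the set. Of 16 further macrophage genes, 12 were higher and 3 lower by their intervals, with a median log2 ratio of 0.48, and 2 were called higher. Among all genes at the minimum, 22.8% were higher and 25.0% lower by their intervals, and 5.17% were called higher. Those 2, named after their values were seen, were Cd5l with 2 and 64 reads (log2 ratio 4.62, interval 2.71 to 7.70) and Vsig4, the complement receptor of resident macrophages, with 6 and 70 reads (log2 ratio 3.17, interval 1.97 to 4.66). Itgam, which encodes CD11b, had 233 and 833 reads (log2 ratio 1.46), whereas the fractalkine receptor gene Cx3cr1 had 1527 and 1072 reads (log2 ratio -0.89). Of 20 lipid and lysosome genes, 15 were higher and 3 lower by their intervals, with a median of 0.66. Spp1, which encodes osteopontin, had 34 and 1121 reads and was 25.4-fold higher (log2 ratio 4.67, interval 4.17 to 5.20). It was not confined to skin, with 55.5 to 472 CPM in the cultured endothelial libraries against 101 CPM under the cKO label. Lgals3, a galectin of phagocytes, had 49 and 323 reads and was 5.07-fold higher. Ctsd, a lysosomal protease, had 2193 and 7952 reads and was 2.79-fold higher, below the rule. The lower ones were Fabp4, Cd36 and Abcg1, and of these Fabp4 and Cd36 are also genes of capillary endothelium.

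In contrast, the inflammatory genes were lower on balance. Of 15 genes, 9 were lower and 4 higher by their intervals, 6 were called lower and 1 higher, and the median log2 ratio was -0.72. By comparison, 25.0% of all genes at the minimum were lower and 22.8% higher by their intervals. By the 3-fold rule 2.41% were called lower and 5.17% higher. The neutrophil-attracting chemokines Cxcl2 and Cxcl1 had 689 and 112 reads and 321 and 78 reads, which were 7.99-fold and 5.35-fold lower. Ptgs2, the inducible enzyme of prostaglandin synthesis, had 418 and 141 reads and was 3.85-fold lower. Cxcl2, Cxcl1 and Ptgs2 were also read in the cultured endothelial libraries, at 7.07 to 42.8, 23.6 to 57.1 and 72.8 to 303 CPM. Il1b, named after its values were seen, had 77 and 15 reads (log2 ratio -2.74, interval -3.64 to -1.93), and 0 reads in each cultured library. Il1a was the gene called higher with 2 and 28 reads. Which cells of the skin libraries gave these reads was not tested. Tnf, with 149 and 264 reads, and Ccl3, with 319 and 562 reads, were higher by log2 ratios of 0.45 and 0.44 with 1 added to each normalized count. The 7 MHC class II genes were rare, at 22.6 CPM together in Cont BECs against 47.1 CPM under the cKO label. Of them, 5 were higher by their intervals. Among 8 ligands and receptors of growth signals, 5 were higher, and Gas6, the ligand that links dying cells to phagocytes, had 2109 and 5544 reads (log2 ratio 1.02).

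**Figure D4:**
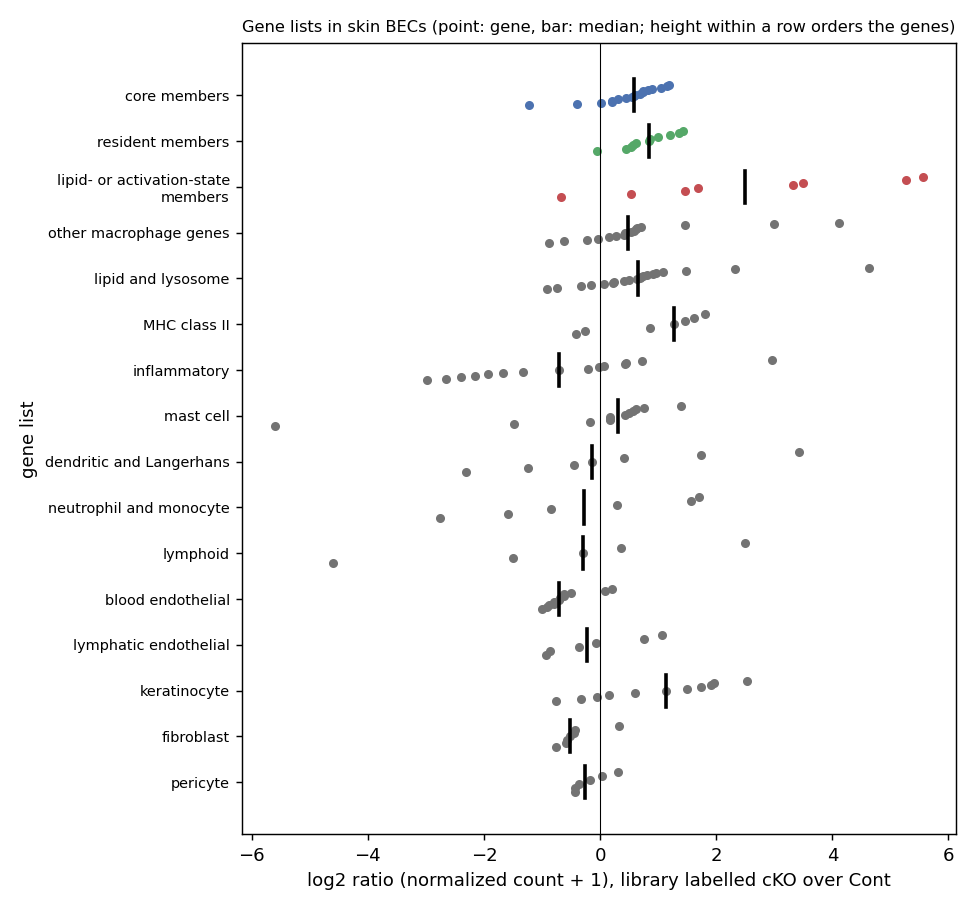
Log2 ratio of each gene (library labelled cKO over Cont BECs, 1 added to each normalized count, x axis) in the macrophage groups and in other lists, for genes with at least 5 normalized counts in either library; points are genes and bars are medians. The medians of the macrophage groups lie right of 0, as do those of the MHC class II (1.27), keratinocyte (1.13) and mast cell (0.30) lists. The other macrophage list (0.48) and the lipid and lysosome list (0.66) lie right of 0 too. Medians left of 0 are those of the inflammatory (-0.72), blood endothelial (-0.70) and fibroblast (-0.51) lists. The lymphatic endothelial (-0.22), pericyte (-0.26), neutrophil and monocyte (-0.28), lymphoid (-0.29), and dendritic and Langerhans (-0.13) lists also lie left.

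Markers of other cells differed as well. Of 12 blood endothelial genes, which were all read in both libraries, 10 were lower and 2 higher by their intervals (median log2 ratio -0.70), and together they went from 6912 to 4453 CPM. All genes at the minimum had shares of 25.0% lower and 22.8% higher by their intervals, and 2.41% called lower. For every 100 reads of these endothelial genes there were 86.2 reads of the 37 macrophage genes in Cont BECs against 221 under the cKO label. For the core genes alone these were 32.2 and 81.5 reads, and for the lipid- or activation-state genes 2.21 and 9.23 reads. Mast cells, which also carry CD45, were present in both libraries, with Cpa3 at 10969 and 19211 reads. Mrgprb1, a receptor gene of connective tissue mast cells, was the one called lower, with 191 and 4 reads (log2 ratio -5.96, interval -7.85 to -4.58). Of 12 mast cell genes, 7 were higher and 3 lower by their intervals, and their sum went from 2979 to 4207 CPM. Kit and Gata2 of this list were also read in the cultured endothelial libraries, at 65.5 to 397 and 79.8 to 132 CPM. Other leukocytes were scarce. The 9 neutrophil and monocyte genes that were counted summed to 10.2 and 14.4 CPM, the 8 dendritic and Langerhans cell genes to 47.8 and 39.7 CPM, with Cd207 at 0 reads in both, and the 7 lymphoid genes to 17.7 and 13.6 CPM. Most of the dendritic and Langerhans sum came from Zbtb46 (33.4 and 25.3 CPM) and Epcam (10.4 and 9.83 CPM). Zbtb46 was also read in the cultured endothelial libraries, at 2.93 to 11.8 CPM. Keratinocyte genes (11 genes, 5 higher and 2 lower by their intervals) went from 244 to 389 CPM. Their median log2 ratio was 1.13, and 4 of them were called higher, against 5.17% of all genes at the minimum. Summed levels in Cont BECs and the library labelled cKO were 2515 and 1852 CPM for 7 fibroblast genes and 547 and 478 CPM for 6 pericyte genes. The 7 lymphatic endothelial genes, of which Ccl21a had 0 reads in both, summed to 2788 and 3246 CPM. Of them, 2 were higher and 4 lower by their intervals, and Lyve1 alone went from 1027 to 1801 CPM. The part of these other cell types in the ratios of the macrophage genes was not tested.

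When the summed reads of the 18 core genes were taken as the size of each library, the ratios were relative to the core genes as a set. Of these, Lcp1, Cd68, Sirpa and Cd14 were also at 1 CPM or more in all 4 cultured endothelial libraries. The scale is therefore not one of macrophages alone. With it, the median log2 ratio was -0.06 over the core genes, 0.20 over the resident genes and 1.86 over the lipid- or activation-state genes. On this scale 20 of the 37 genes were higher and 17 lower, and Csf1r, Spi1, Ptprc and Mrc1 turned from higher to lower. Every log2 ratio was lowered by the same 0.65, so the core median near 0 and these turns follow from the construction. Marco, Gpnmb, Trem2, Clec4d and Cd84 stayed higher, at log2 ratios of 5.14, 4.86, 2.91, 2.74 and 1.04, the last of them below 3-fold.

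In the cultured libraries 18 of the 37 genes were not detected above the floor of 3 reads in any of the 4, among them C1qa, C1qb, C1qc, Cd163, Tyrobp, Spi1, Marco and Gpnmb. The floor of 3 reads corresponds to 0.0967 to 0.215 CPM in these libraries, and to 0.338 and 0.271 CPM in the skin libraries. Of the others, 8 genes were at 1 CPM or more in all 4 cultured libraries, which hold endothelial cells: Lcp1, Cd68, Lgmn, Sirpa, Pf4, Clec4d, Clec4e and Cd14. Lgmn reached 85.3 CPM (Cont) and 92.4 CPM (OE) among cultured BECs and 214 CPM (Cont) and 249 CPM (OE) among LECs, next to 326 CPM in Cont BECs of skin. Clec4d was at 6.89 to 44.0 CPM in the cultured libraries, next to 1.92 CPM in Cont BECs of skin and 20.8 CPM under the cKO label. Mrc1, in contrast, had 4 to 11 reads in each cultured library.

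Dot1l itself went from 1972 to 4208 reads (112 to 302 CPM) with overexpression in BECs, and was 2.78-fold higher by normalized counts. In LECs it went from 2490 to 6720 reads (95.3 to 217 CPM) and was 2.30-fold higher. In OE-BECs, 17 of the 37 genes reached the minimum, and of these 2 were called higher and 3 lower by the rule for overexpression (a larger normalized count of at least 3), against 8.02% and 5.27% of the 14792 genes at that minimum. By their intervals 5 were higher and 6 lower, against 26.3% and 27.5% of those genes. Clec4d, one of the genes called higher in the skin library labelled cKO, had 472 and 96 reads in the BEC pair and was 3.77-fold lower (log2 ratio -1.91, interval -2.25 to -1.60). In LECs it had 1148 and 786 reads and was 1.71-fold lower (log2 ratio -0.78, interval -0.91 to -0.65). Lyz2 had 40 and 7 reads in BECs and was 4.38-fold lower (interval of the log2 ratio -3.54 to -0.96), and in LECs it had 21 and 16 reads. Fcer1g, with 2 and 7 reads, and Trem2, with 4 and 1, were also called in BECs, but their intervals spanned 0.

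C3ar1 was the only one of the 37 genes that was called higher in both OE-BECs and OE-LECs. It had 10 and 35 reads in BECs and was 4.56-fold higher (log2 ratio 2.19, interval 1.15 to 3.37). In LECs it had 40 and 184 reads and was 3.92-fold higher (log2 ratio 1.97, interval 1.47 to 2.50). C3ar1 was also higher in the skin library labelled cKO, so that its direction was the same in all 3 comparisons. Sirpa and Lgmn shared this direction by their intervals, with smaller ratios. Their log2 ratios in skin, BECs and LECs were 0.73, 0.38 and 0.48 for Sirpa, and 0.99, 0.15 and 0.23 for Lgmn. Besides C3ar1, the gene called in OE-LECs was Laptm5, with 1 and 4 reads and an interval that spanned 0. In that pair 18 of the 37 genes reached the minimum, and of these 2 were called higher and 0 lower, against 2.77% and 2.09% of the 13883 genes at the minimum. By their intervals 3 were higher and 4 lower, against 22.8% and 20.2% of those genes.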

How the data were processed

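The labels name 6 libraries, each the only one of its group. Per the study's methods, the authors trimmed adapters with skewer, aligned the reads to mm10 with STAR, counted reads per gene with VERSE (option -S) and deposited raw counts of reads per gene symbol, made from ScriptSeq v2 libraries. What that option sets for strand is not given in the sources used here, so reads of overlapping antisense genes may be included. From these counts, size factors were computed by the median of ratios (DESeq2 1.42.0, R 4.3.3) on each pair of libraries, and CPM on the library total. Intervals are exact (Clopper-Pearson, scipy 1.17.1, Python 3.11.15). No test of a condition was possible with 1 library a group. List medians use a pseudocount of 1. The ratio step was checked on simulated counts in which 200 genes had known changes.

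The genes, their 3 groups and the lists were chosen with earlier results of these data known. Besides the 37 genes, the gate genes and Dot1l, the text names genes of fixed lists with at least 100 normalized counts and the largest change, up to 3 a list, and others where stated or where a result turns on them. Lists with few reads (erythroid, skeletal muscle, melanocyte, Schwann and adipocyte markers) summed to 25.8 and 22.2, 109 and 98.8, 47.7 and 71.2, 34.3 and 46.2, and 65.9 and 34.1 CPM in Cont BECs and the library labelled cKO. Among 10 near copies and neighbours of the genes, 6 reached the minimum in skin and 2 were called higher, against 5.17% of all genes at the minimum. Exon lengths and positions came from GENCODE M21. Alternatives were other size factors (all 6 libraries, TMM of edgeR 4.0.16, total counts, summed core reads), a minimum of 20, a fold of 2, a pseudocount of 0.1, at least 20 reads, another grouping, and leaving out the highest gene.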

Additional observations from a re-analysis of the deposited data

How the results depend on the processing

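Size factors from all 6 libraries, TMM factors and total counts left each number of macrophage genes called as reported, and the median over the lipid- or activation-state genes between 2.51 and 2.56. Total counts put Cd163 at a log2 ratio of 0.0066 and Mrc1 at 0.62. With summed core reads as library size, the medians in skin were 0.085 over all 37 genes, -0.062 (core), 0.20 (resident) and 1.86 (lipid- or activation-state), and the log2 ratios of the genes that turned were -0.34 (Csf1r), -0.20 (Spi1), -0.071 (Ptprc), -0.053 (Laptm5), -0.10 (Tyrobp), -0.44 (Ctss), -0.45 (Fcgr1), -0.081 (Mrc1), -0.12 (Folr2), -0.034 (Ms4a7), -0.11 (Msr1), -0.62 (Cd86) and -0.20 (Timd4), the last 2 with intervals that spanned 0 before the change of scale. This follows from the construction, since the core reads were higher by 0.65 on the log2 scale and every ratio was lowered by that amount. The median over the lipid- or activation-state genes was 3.41 with Msr1, Cd84, Lgmn and Ms4a7 counted as core, and 1.69 without Marco, and its distance from the resident median was 2.56 with that grouping and 0.96 without the highest gene of each group (Marco and C1qb), in place of 1.65. With a fold over 2, 12 genes were called higher and 1 lower (Cd14) in skin. In OE-BECs 3 were then higher and 5 lower, and in OE-LECs 4 were higher and 1 lower (Siglec1). The share of all genes called at this fold was not computed, so these counts have no background. With a minimum of 20 normalized counts, 1 gene, C3ar1, was called higher and 2 lower (Clec4d and Lyz2) in OE-BECs. In OE-LECs 1 gene, again C3ar1, was called higher. No paired analysis was possible because each group has 1 library, and for the same reason no replicate could be left out. Marco and Gpnmb rest on 5 reads each in Cont BECs, so their ratios are known only within wide intervals.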
